A study of Mus musculus with 2 samples.

Results

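The genes described here encode 10 digestive enzymes and granule proteins of the exocrine pancreas and were taken by gene symbol from the 18194 genes named on the arrays. They are the elastases Cela1, Cela2a and Cela3b, the chymotrypsins Ctrl and Ctrb1, the trypsinogen gene 2210010C04Rik, the carboxypeptidases Cpa1 and Cpb1, and the zymogen granule proteins Sycn and Gp2. They were chosen by their log2 values on the colon and the small intestine array, so these values are a description and carry no test. By the brightest probe set of each, all 10 genes lay above the background level of 5 (log2 expression value) on the colon array, and 9 of 10 lay at or below it on the small intestine array, a pattern of 3.29% of all genes. All 10 were higher in colon by at least 3-fold, as were 3.33% of the 18194 genes and 5.49% of those that exceeded background in at least 1 tissue, and 3.46% of all genes were higher in small intestine by as much. Because the choice rests on this comparison, nothing is read from these shares. Their median difference, colon minus small intestine with values under 5 raised to 5, was 7.34 on the log2 scale (at least 162-fold, since 9 of the 10 values are minimum values), against a median of 0 over all genes. It was 8.87 without raising values. Without the probe sets that can match several transcripts it was 5.67, but over the 6 genes that were left, so the set of genes differs too.

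The series held 2 Affymetrix mouse genome arrays, 1 for a biopsy of the colon and 1 for a biopsy of the small intestine, both from wild-type adult mice and labelled as total RNA. The labels give no strain, no treatment and no number of animals behind each array, and the methods of the study name C57B6 mice, jejunum and distal colon but refer to a different deposited series for its arrays. It is not settled that the 2 arrays described here are those of the study. With 1 array per tissue there is no replicate spread, no test was run and no p-value is given. The labels matched the tissue markers, since 7 of 7 colon genes such as Car1 and Hoxb13 were higher by 3-fold on the colon array and 7 of 7 small intestine genes such as Lct and Apoa4 on the other. These marker lists were chosen with earlier results of these data known, so the match is no independent check. Of 7 genes of the intestinal epithelium, 6 differed by less than 3-fold.

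Acinar cells of the pancreas make digestive enzymes as inactive zymogens, store them in secretory granules and release them through the pancreatic duct into the duodenum. There enteropeptidase activates trypsinogen, and trypsin activates the other proteases. Elastases, chymotrypsins and trypsin cut within proteins, while carboxypeptidases remove amino acids from the ends of peptides. Transcription of these genes in acinar cells depends on the PTF1 complex, which holds the factors Ptf1a and Rbpjl and binds an E-box near a TC-box. In bulk tissue, fewer cells of a type and less RNA per cell cannot be told apart.

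The 250 bases before the annotated start of each gene, from RefSeq promoter sequences of build GRCm38.p6, were searched on both strands for short motifs of acinar regulation, and all 10 genes were found in that table. The E-box CACCTG was present before 6 of 10 genes and in 17.1% of 27025 promoters of the same length, and the palindromic E-box CAGCTG before 3 of 10 and in 12.8%. The TC-box TGGGAAA was found before Cela2a, Ctrb1 and Cpa1, and in 6.79% of promoters. An E-box of either kind together with a TC-box was present before Cela2a and Ctrb1, and in 1.84% of promoters. Counted from the start, they began at -205 and -195 before Ctrb1 and at -218 and -85 before Cela2a. The GATA motif TGATAA occurred before 5 of 10 genes and in 8.16% of promoters, the TATA box TATAAA before 3 of 10 and in 13.0%, and the motif AAGGTCA, which Nr5a2 can bind, before Cela1 and in 4.05%. No matches overlapped in the windows of the 10 genes, and a match is a description of letters and not of binding. The search took exact letters and set no limit on the spacing between an E-box and a TC-box. A pair therefore does not define a PTF1 site, and variants of either box were not counted. Printed below are the windows of Cela2a and Ctrb1, which held an E-box and a TC-box anywhere in the 250 bases. Also printed are those of Cela3b, which had a pair of E-boxes, and of Sycn, which had none of the letters searched. Capitals mark the motif matches, and the last base lies just before the annotated start.
Cela2a (chr4:141826006-141826255, minus strand): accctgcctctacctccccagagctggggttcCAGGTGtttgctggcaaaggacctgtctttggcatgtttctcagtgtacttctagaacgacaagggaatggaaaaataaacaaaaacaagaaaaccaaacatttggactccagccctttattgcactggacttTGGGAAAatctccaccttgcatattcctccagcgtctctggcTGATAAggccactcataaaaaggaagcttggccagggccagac
Ctrb1 (chr8:111691011-111691260, minus strand): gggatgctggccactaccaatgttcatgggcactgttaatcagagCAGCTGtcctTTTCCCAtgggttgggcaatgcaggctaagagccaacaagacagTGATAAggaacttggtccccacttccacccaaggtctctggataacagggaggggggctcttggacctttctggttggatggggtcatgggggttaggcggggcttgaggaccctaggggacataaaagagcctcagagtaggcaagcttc
Cela3b (chr4:137430521-137430770, minus strand): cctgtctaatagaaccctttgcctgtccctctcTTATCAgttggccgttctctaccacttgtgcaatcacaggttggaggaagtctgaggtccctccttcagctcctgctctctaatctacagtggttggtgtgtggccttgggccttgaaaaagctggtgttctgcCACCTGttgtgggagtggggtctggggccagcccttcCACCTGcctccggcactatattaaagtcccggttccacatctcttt
Sycn (chr7:28540635-28540884, plus strand): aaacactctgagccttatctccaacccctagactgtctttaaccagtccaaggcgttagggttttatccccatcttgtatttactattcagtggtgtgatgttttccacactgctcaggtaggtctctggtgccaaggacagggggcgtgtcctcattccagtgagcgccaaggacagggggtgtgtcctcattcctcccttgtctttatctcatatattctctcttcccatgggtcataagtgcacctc

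Elastases were bright on the colon array, and their levels on the other array differed. Cela2a, a pancreatic elastase, had a log2 level of 12.74 in colon and 2.78 in small intestine, at least 214-fold in favour of the colon. Cela3b, another member of the elastase family, had 13.95 in colon and 3.65 in small intestine with its brightest probe set, at least 496-fold. By these probe sets both were at background in the small intestine, although another probe set of Cela3b read 5.33 there, and these folds are minimum values set by the background level. Cela1 was the exception among the 10 genes. It had 12.67 in colon and 8.07 in small intestine, a measured 24.1-fold, so that its transcript was above background on both arrays.

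The chymotrypsins and the trypsinogen gene were above background only on the colon array. Ctrl, a chymotrypsin-like protease, had 12.79 in colon and 4.49 in small intestine, at least 222-fold. Ctrb1, which encodes chymotrypsinogen B, had 9.96 and 2.30, at least 31.2-fold. The trypsinogen gene 2210010C04Rik had 13.28 and 4.02 with its brightest probe set, at least 312-fold. All 3 genes lay under 5 in the small intestine, and the distances of these values below 5 have no order.

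Both pancreatic carboxypeptidases had the same pattern. Cpa1, which prefers peptide ends with aromatic or aliphatic residues, had 11.37 in colon and 2.80 in small intestine, at least 82.8-fold. Cpb1, which removes basic residues such as those left by trypsin, had 11.95 and 2.77, at least 123-fold. Of the granule proteins, Sycn (syncollin, on the inner face of the zymogen granule membrane) had 13.80 in colon and 4.56 in small intestine, at least 446-fold. Gp2, the main glycoprotein of zymogen granule membranes and also a surface receptor of M cells, had 7.56 and 4.41, at least 5.89-fold. Gp2 had the smallest difference of the 10 genes, and with a background level of 6 its difference of 1.56 was under 3-fold.

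**Figure D1:**
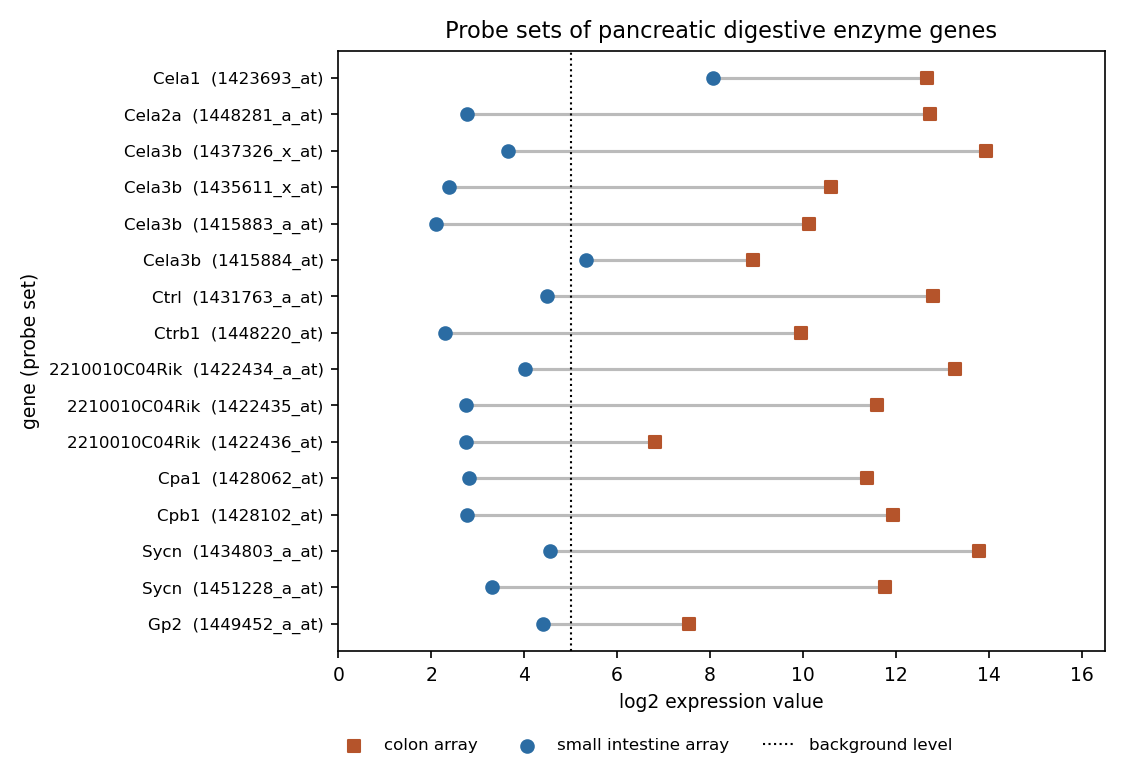
Log2 expression value of each of the 16 probe sets of the 10 genes (rows, with the probe set name in brackets) on the colon array (squares) and the small intestine array (circles), 1 array per tissue, and the dotted line is the background level. All 16 squares lie right of the line, and only Cela1 and 1 probe set of Cela3b have their circle right of it.

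The 10 genes were covered by 16 probe sets, and 7 genes rested on 1 probe set each. All 16 probe sets favoured the colon by at least 3-fold, as did 2.66% of the 34958 probe sets with 1 gene. The direction was thus shared by the probe sets of each gene, while the size was not. The 4 probe sets of Cela3b had differences of 8.95, 5.61, 5.13 and 3.59, the last from 8.92 in colon and 5.33 in small intestine, a measured 12.1-fold. Those of 2210010C04Rik had 8.28, 6.60 and 1.82, and those of Sycn 8.80 and 6.77. These ranges of 5.36, 6.46 and 2.03 are between minimum values, apart from the measured 3.59, so they follow the colon level as well. Without a floor the differences were 10.30, 8.22, 8.03 and 3.59 for Cela3b. They were 9.27, 8.84 and 4.08 for 2210010C04Rik, and 9.24 and 8.45 for Sycn. The fold of Cela3b and 2210010C04Rik depended on the probe set with and without a floor, while the Sycn values lay closer together without it. The pooled SD between probe sets of a gene, with values raised to 5, was 0.60 over 4142 genes. An SD and a range are different measures. By their name endings 7 of the 16 probe sets can report several transcripts of a gene or gene family (_a) and 2 can share sequence with other genes (_x). Ctrl, Cela2a, Sycn and Gp2 had _a probe sets only, and how far related enzymes add to their values was not tested.

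Several further enzymes of acinar cells were high on the colon array, but a number of genes on that list were not. Of 32 listed genes for other acinar secreted proteins 19 had a probe set assigned to them alone, and of these 6 favoured the colon by at least 3-fold and 1 the small intestine, with a median difference of 1.27. Trypsinogen Prss2 had 11.78 in colon and 5.68 in small intestine (68.5-fold), and its 4 probe sets had differences between 5.04 and 6.10. The lipase-related Pnliprp1 had 10.66 and 4.84 (at least 50.7-fold), and the bile salt-activated lipase Cel had 9.76 and 3.02 (at least 27.1-fold). Kallikrein Klk1, which goblet cells also make, the ribonuclease Rnase1 and Cuzd1 followed with 20.6-fold, 7.92-fold and at least 5.52-fold. The 4 probe sets of Klk1 disagreed, with differences from 0 to 4.66. Without a floor 4 more genes reached 3-fold, namely Amy1, Prss3, the phospholipase Pla2g1b and the inhibitor Serpini2, each between 6.08 and 6.56 on the colon array. For Pla2g1b only the brightest probe set did so, and the other probe sets of this gene were at background on both arrays.

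Of the 13 genes of that list that were not 3-fold higher in colon, 7 were above background on both arrays. Colipase (Clps), the cofactor of pancreatic lipase, had 13.53 in colon and 12.68 in small intestine, and its other probe set had 11.88 and 11.09. Pnliprp2, a lipase that acts on galactolipids, had 8.98 in colon and 11.78 in small intestine, 6.97-fold higher in the small intestine, and its other probe set had the same direction. The trypsin inhibitor Spink1 had 13.91 and 15.42, the lectin Reg1 10.78 and 12.16, and the granule lectin Zg16, which goblet cells also make, 15.88 and 15.64. The protease Ctrc, which lies next to Cela2a on the chromosome, was at background on both arrays with 3.55 and 3.56.

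Probe sets assigned to several genes at once name no single gene, but 3 of the 5 that list an acinar enzyme had the pattern of the 10 genes. One assigned to 5 pancreatic amylase genes had 15.56 in colon and 3.29 in small intestine, at least 1506-fold. A probe set shared by Cela3a and Cela3b had 14.18 and 3.94 (at least 578-fold), and one shared by Try4 and Try5 had 11.88 and 3.52 (at least 118-fold). One shared by 4 genes that include Prss1 and Prss3 had 5.91 and 3.12, and one shared by Amy1 and Rnpc3 had 5.12 and 5.16. The salivary type amylase Amy1, through a probe set of its own, had 6.41 in colon and 4.55 in small intestine.

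Transcription factors of acinar cells did not follow the enzymes. Of 8 measured factors none reached 3-fold in favour of the colon, and the median difference was -0.22. Ptf1a had 2.54 in colon and 2.55 in small intestine, and Rbpjl had 2.55 and 2.56, so that both specific parts of the PTF1 complex were at background on both arrays. The series held no pancreas array. Whether these probe sets would detect either factor in a small share of pancreatic RNA was not tested. Bhlha15, which shapes secretory cells of several organs, had 5.82 in colon and 7.42 in small intestine (3.03-fold higher in the small intestine). Its other probe set was at background on both arrays, with 3.98 and 3.73. The factors Nr5a2 (9.35 and 8.48), Foxa3 (8.05 and 7.87) and Xbp1 (12.65 and 13.10), which the intestine also uses, were above background on both arrays and differed by less than 3-fold. Of 13 genes for secretory machinery and receptors, only the pancreatic disulfide isomerase Pdia2 reached 3-fold in the colon, with 7.14 against 5.52 (3.08-fold). The cholecystokinin receptor Cckar (5.05 and 3.19) and the water channel Aqp12 (5.18 and 4.36) lay just above background in the colon and below it in the small intestine, and Cckar passed 3-fold without a floor.

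Few islet genes differed between the arrays. Of 13 measured islet genes, 7 lay at or below 5 on both arrays and 1 was 3-fold higher in the colon. Insulin (Ins2) had 2.77 in colon and 2.74 in small intestine, and the islet genes Slc30a8, G6pc2, Nkx6-1 and Ucn3 were also at background on both. Proglucagon (Gcg), which L cells of the gut make too, had 11.97 and 9.18 (6.91-fold higher in the colon). Amylin (Iapp, 7.77 and 7.95) and somatostatin (Sst, 6.41 and 7.54) were above background on both arrays and differed by less than 3-fold. Pancreatic polypeptide (Ppy) had 6.44 in colon and 3.40 in small intestine, a floored difference of 1.44, which was over 3-fold without a floor. Of 6 genes of pancreatic ducts, Car2 (43.3-fold) and Sox9 (3.54-fold) were higher in the colon, and all but Onecut1 were above background on both arrays. Whether the transcripts of these duct genes came from duct cells or from cells of the gut was not tested.

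**Figure D2:**
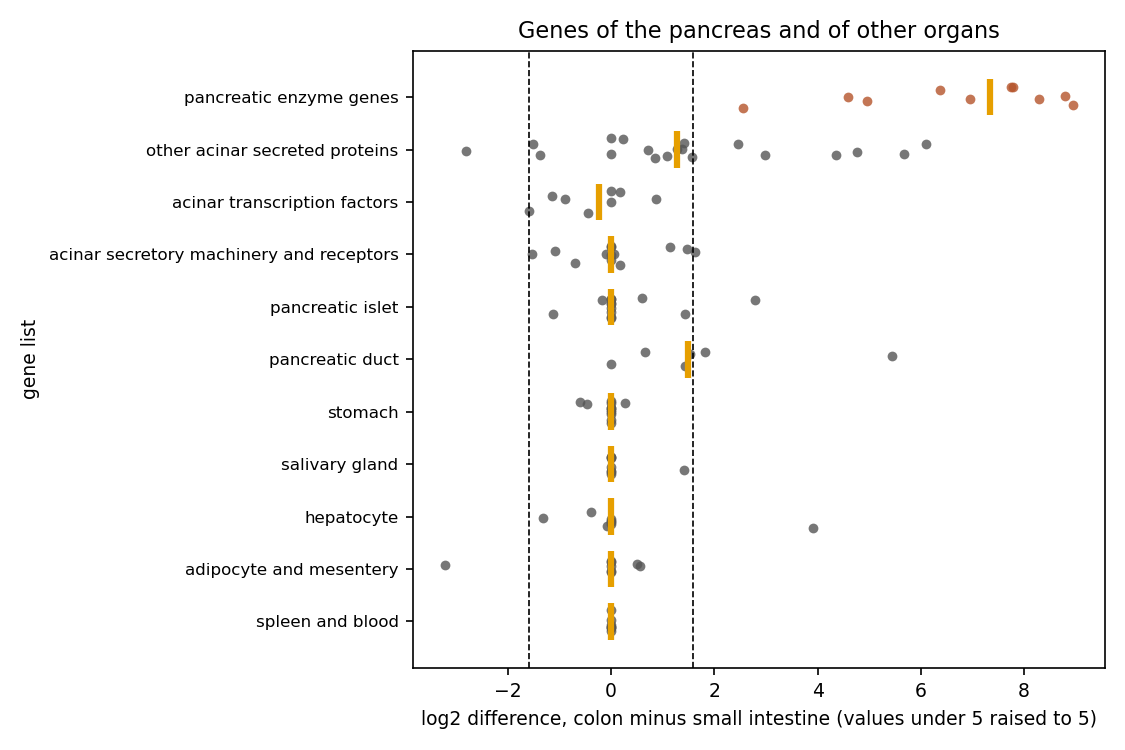
Each point is 1 gene of a gene list (rows), placed by its log2 difference between the colon and the small intestine array with values under 5 raised to 5. The orange bar of a row is its median, and dashed lines stand at 3-fold. The 10 enzyme genes, which were chosen by this difference, lie between 2.56 and 8.95 with a median of 7.34. The medians are 1.27 for other acinar secreted proteins, 1.48 for pancreatic duct and -0.22 for acinar transcription factors. Those of the acinar secretory machinery, islet, stomach, salivary gland, hepatocyte, adipocyte and blood lists are 0.

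Markers of other organs near the gut were not raised as lists on the colon array. None of 12 stomach genes reached 3-fold in favour of the colon, and pepsinogen C (Pgc), gastric lipase (Lipf) and the proton pump genes Atp4a and Atp4b were at background on both arrays. None of 8 salivary gland genes did so with values raised to 5, and 7 of them were at background on both. Of 8 hepatocyte genes, albumin (Alb, 2.86 and 2.97) was at background on both, and only transthyretin (Ttr) was higher in the colon, with 12.37 against 8.46 (15.1-fold). None of 7 genes of accessory sex glands reached 3-fold. All 7 genes of spleen and blood were at background, and of 8 genes of adipocytes and mesentery none was 3-fold higher in the colon. Among 8 M cell genes, which bear on Gp2, the only one higher by 3-fold in the colon was Gp2 itself, which was chosen by this comparison. Tnfaip2 had 7.74 in colon and 9.55 in small intestine (3.50-fold higher in the small intestine). The M cell factor Spib had 6.01 in colon and 6.12 in small intestine.

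Relatives of the enzymes outside the pancreas differed in both directions. Of 18 other serine proteases with the trypsin fold, the membrane protease Tmprss2 (3.11-fold) and Prss32 (3.82-fold) were higher in the colon, and the granzymes Gzma (24.6-fold) and Gzmb (13.0-fold) in the small intestine. The median of that list was 0, as was that of the other metallocarboxypeptidases. Of 13 other metallocarboxypeptidases, Cpn1 (at least 9.54-fold) and Cpq (3.45-fold) were higher in the colon, and mast cell carboxypeptidase (Cpa3) was at background on both arrays. Of 8 genes that activate or inhibit pancreatic proteases, none reached 3-fold in favour of the colon, and the inhibitor Serpina1b had 2.40 and 6.92, a fold of at least 3.78 in favour of the small intestine. Enteropeptidase (Tmprss15) was at background on both arrays, with 3.13 in colon and 3.98 in small intestine, and the inhibitor Serpini2 had 6.56 and 3.65 (at least 2.94-fold). Of the 5 hormones that drive pancreatic secretion, none reached 3-fold in favour of the colon. Cholecystokinin (Cck) had 3.18 in colon and 6.30 in small intestine, at least 2.47-fold in favour of the small intestine and over 3-fold without a floor, and secretin (Sct) had 7.38 in colon and 7.83 in small intestine.

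The genes next to the enzyme genes were described in the same way. For each of the 10 genes the nearest 2 measured genes on either side were taken from the order of the RefSeq gene table, which gave 40 neighbours. None of the 40 favoured the colon by 3-fold, a count close to what the share of 3.33% over all genes gives, and 1 did so without a floor. Their differences, with values under 5 raised to 5, ran from -2.32 to 1.41 with a median of 0. Raising values gives 0 for every neighbour at background on both arrays, such as the genes around Gp2. The proteasome gene Psmb10, beside Ctrl, had 8.95 in colon and 11.27 in small intestine (4.99-fold higher in the small intestine). Carboxypeptidase genes next to Cpa1 (Cpa4 and Cpa5) and next to Cpb1 (Cpa3) were at background on both arrays, as was Umod beside Gp2. The trypsinogen gene Prss3, near 2210010C04Rik, was that 1, with 6.27 and 3.76 (at least 2.42-fold, and 5.71-fold without a floor).

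**Figure D3:**
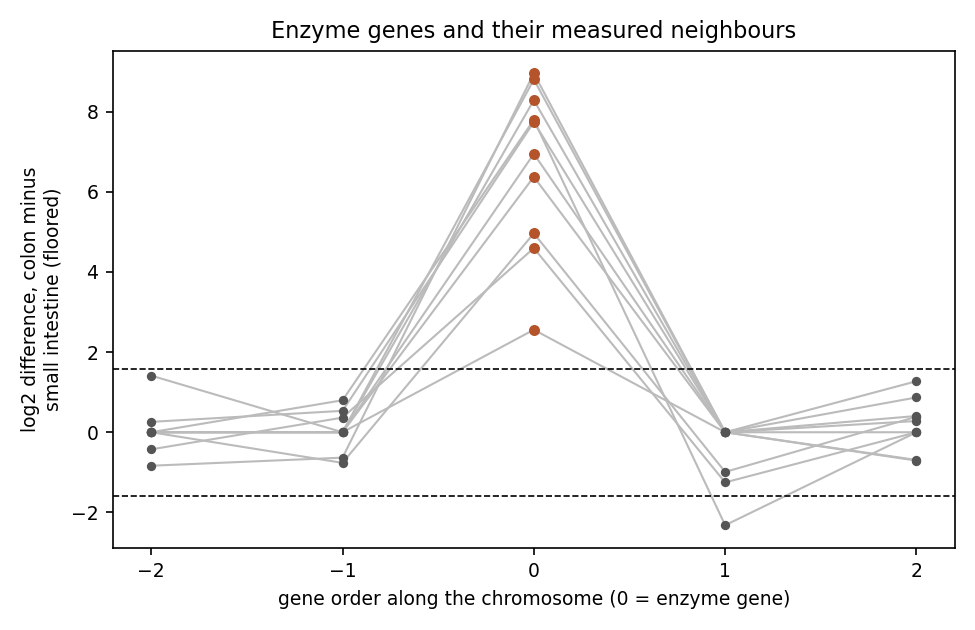
Log2 difference between the colon and the small intestine array (values under 5 raised to 5) of each enzyme gene (position 0) and of its 2 nearest measured genes on either side in chromosomal order, joined by a line per enzyme gene. Dashed lines mark 3-fold, and none of the 40 neighbours lies above the upper one.

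By the rule used to find genes of like pattern, at or below background in the small intestine and with a difference of at least the median of the 10 genes, 2 other named genes were found. These were the carbonic anhydrase Car1, with 15.49 in colon and 2.86 in small intestine (at least 1433-fold), and the goblet cell product Retnlb, with 13.49 and 3.64 (at least 359-fold). Both are known products of the colonic epithelium. In addition 1 probe set with no gene in the table used here had 12.61 in colon and 2.85 in small intestine (at least 196-fold). With only 2 arrays, likeness of pattern means no more than a like difference.

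Control probe sets gave the technical differences between the arrays. Poly-A control transcripts, which are added to the RNA before labelling, had differences between -0.61 and 0.04 at their 3 prime ends, but between 0.68 and 2.73 (6.65-fold) at their 5 prime ends, all 8 higher on the colon array and 6 of them by 3-fold. Hybridization controls ranged up to 1.52. The mouse Gapdh controls had a 3 prime to 5 prime difference of 2.32 on the colon array and 3.61 on the small intestine array, and those of Actb 4.46 and 4.80. With values under 5 raised to 5, Gp2 (at least 2.56) and the dimmest 2210010C04Rik probe set (at least 1.82) lay below the largest control. With values as deposited, as for the controls, their differences were 3.15 and 4.08, above the largest control. Where the probes of each enzyme gene lie along its transcript was not tested.

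**Figure D4:**
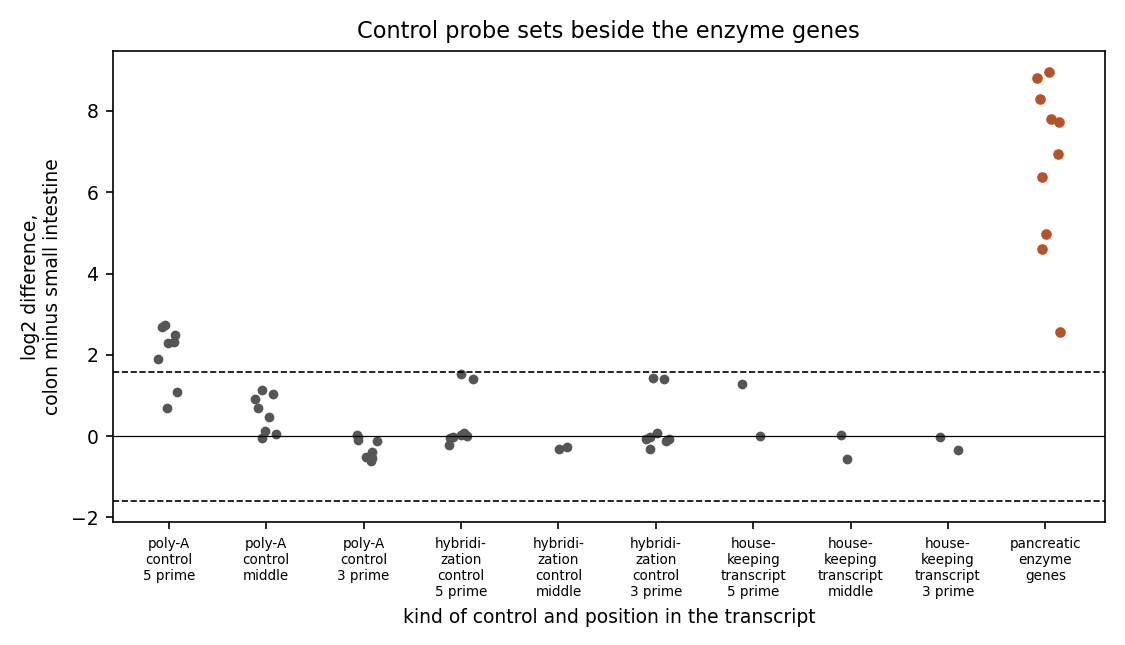
Log2 difference, colon minus small intestine, of the control probe sets by kind and position in the transcript (grey, values as deposited) beside the 10 enzyme genes (orange, with values under 5 raised to 5). Dashed lines mark 3-fold, and the 5 prime poly-A controls reach 2.73, while the brightest probe sets of the enzyme genes, which were chosen by this difference, lie between 2.56 and 8.95.

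These values bear on the source of the transcripts only in part. The enzyme transcripts were high on the colon array together with Prss2, Pnliprp1, Cel and the shared amylase probe set, while Ptf1a, Rbpjl and Ins2 lay at background. Whether the probe sets of Ctrc, Ptf1a, Rbpjl and Ins2 would detect a small share of pancreatic RNA was not tested. Clps, Pnliprp2 and Spink1 were above background on both arrays, whereas 9 of the 10 genes, by their brightest probe sets, were at background in small intestine. Transcription of these genes by cells of the colon (ectopic expression) and pancreatic tissue or RNA carried over into the colon sample cannot be told apart with 1 array per tissue.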

How the data were processed

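Labelled total RNA of colon and small intestine was hybridised by the authors to Affymetrix mouse genome arrays, 1 per tissue. Per probe set, the authors deposited normalized log2 expression values. The labels name GCRMA for this step whereas RMA is named in the methods of the study, for arrays of another deposited series, with no version given, and GCRMA can widen a fold against a dim value. Which arrays were normalized together is unknown here. Values were used as deposited for 45101 probe sets. Of these, 34958 had 1 gene in the platform annotation, 932 had several and 9160 besides controls had none. Symbols were checked by Entrez identifier against RefSeq (GRCm38.p6), where 34754 matched and 0 changed.

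For each gene the brightest probe set over both arrays was used. Background was set at 5, above all 80 probe sets of olfactory and vomeronasal receptors (highest value 4.78). Values under 5 were raised to 5 for differences, and a difference of 3-fold was called. The study used 3-fold for its sequencing values, with another correction for low values, so only the size of the fold was taken over. A fold against a value at background is a minimum. No test was possible with 1 array per tissue, which also limits the precision. The 10 genes, the gene lists and the rules were chosen with earlier results of these data known. Genes named are the 10, up to 6 per list by size of difference or defining genes at background, other list genes named for their role after their values were seen, and genes past the median of the 10. The 11 alternatives were other background levels, folds, scalings and choices of probe set. The procedure was tested on simulated data, with shifts well past the called fold planted only in genes bright on the colon array. That setting does not cover genes at background on 1 array, as most of the 10 were. Computations were done in pandas 2.3.3 and numpy 2.4.6 under Python 3.11.15, and plots in matplotlib 3.10.9.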

Additional observations from a re-analysis of the deposited data

How the results depend on the processing

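All 10 genes passed the fold used, in favour of the colon, under 9 of the 11 alternatives. With a background of 6 there were 9, as Gp2 was lost. Leaving out _x, _s and _a probe sets left 6 genes measured, all 6 past 3-fold, because 4 genes have no other probe set. The median difference of 7.34 was 8.13 with a background of 4, 6.34 with 6, 8.87 without a floor, 6.48 with the median over probe sets, 5.67 without _x, _s and _a probe sets and 5.75 with the dimmest probe set of each gene. Over the alternatives the differences of single genes ranged from 1.56 to 10.30. Other acinar secreted genes past 3-fold in the colon were 6, but 10 with a background of 4, 10 without a floor, 11 at 2-fold, 5 with a background of 6, 5 without _x, _s and _a probe sets and 5 with the dimmest probe set. Islet genes were 1, but 2 with a background of 4, 2 without a floor, 2 at 2-fold and 0 without _x, _s and _a probe sets. Stomach genes were 0 throughout. Quantile normalization and both centrings changed none of these counts. No paired analysis was possible because each tissue had 1 array. Near background the signal limits what a fold can show.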
